A study of Mus musculus with 20 samples.

Results

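*Mex3a*, *Art2a-ps*, *Trim24* and *Rwdd2a* were 4 of the 39017 genes in a table of expected read counts from mouse T cell leukemias, and they were picked because each differed between the DEX and VEH columns in the same direction in all 9 leukemias. The values that chose them are given here as a description, without a test. The leukemias arose in C57Bl/6 x 129Sv/Jae F1 mice after injection of the MOL4070LTR retrovirus, which mutates genes by insertion. They were transplanted into irradiated wild-type F1 recipients, and poly(A) RNA from bone marrow was sequenced with an unstranded kit. Leukemias 20M, 2M, 5C, 73A, 73M, 78A, 8633, JW14 and JW81 each gave 1 VEH and 1 DEX library, so 18 libraries were compared within 9 pairs. A further leukemia, 4638, also gave 1 library of each kind and was not used in choosing the genes. The labels name the leukemias but not the treatment of a library, so the letters VEH and DEX are used as they stand in the column names, and it is not stated whether the libraries of a leukemia came from different recipients.

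*Mex3a* encodes an RNA-binding protein with KH domains and a RING finger, related to a translational regulator of the nematode embryo and known from progenitor cells of the intestine. *Art2a-ps* and its neighbour *Art2b* belong to the mono-ADP-ribosyltransferases, enzymes on the surface of mouse T cells that transfer ADP-ribose from extracellular NAD onto proteins such as the ATP receptor P2RX7. In C57BL/6 mice *Art2a* is a pseudogene, hence its name. *Trim24* (TIF1 alpha) encodes a chromatin reader that binds nuclear receptors and acts as a ubiquitin ligase for p53, and *Rwdd2a* encodes a small protein with an RWD domain, a fold that other proteins use for binding partners.

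The total count of the 18 libraries ran from 8226528 to 201222288 with a median of 24451898. Ribosomal RNA genes exceeded 1 CPM (counts scaled to library size) in 5 libraries, which were the VEH one of 5C and, of the DEX kind, those of JW81, JW14, 73M and 20M, and in no library of the other 4 leukemias. T lineage markers (7 genes) summed to between 319.5 and 1019 FPKM (fragments per kilobase of exon, scaled to library size) in the VEH libraries and to between 343.8 and 879.6 FPKM in the DEX libraries, and no marker was at 0 throughout. Their sum was lower in the DEX library in 8 of 9 leukemias, and 1 of the 7 genes, *Cd5*, passed the test described below, in the lower direction (2 with DESeq2, *Cd3g* and *Cd5*). The sum of 6 neutrophil markers was lower in 7 of 9, from 23.3 to 2385 FPKM in VEH and 10.09 to 1395 FPKM in DEX libraries, and 0 of the 6 genes passed with edgeR (2 at an unadjusted p under 0.05, and 1 with DESeq2). Over all genes tested 13.0% passed, so neither count is a result about these markers. B lineage markers summed to at most 26.5 FPKM and macrophage markers to at most 22.2 FPKM in these 18 libraries, while erythroid markers reached 465.4 FPKM. The part of these cell types in the differences below was not tested, and in bulk samples fewer cells of a type and less RNA per cell cannot be told apart.

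Genes averaging 1 FPKM or more over the 18 libraries were compared, 11339 in all. Of these, 720 (6.35%) differed in the same direction in 9 of 9 leukemias, 337 (2.97%) higher and 383 (3.38%) lower in the DEX columns. By the size of the log2 fold change, fitted with edgeR and the leukemia as a block, *Art2a-ps* ranked 1 and *Mex3a* 12 of the 383 lower genes, whereas *Rwdd2a* ranked 44 and *Trim24* 119 of the 337 higher genes. Of the genes just outside, with 8 of 9 leukemias in one direction, the largest differences were those of the snoRNA *Gm25776* (log2 fold change 6.32 ± 1.93 SE), which went the other way in 5C, and of the lipase gene *Lipg* (-1.81 ± 0.31 SE), also with 5C as the exception.

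**Figure D1:**
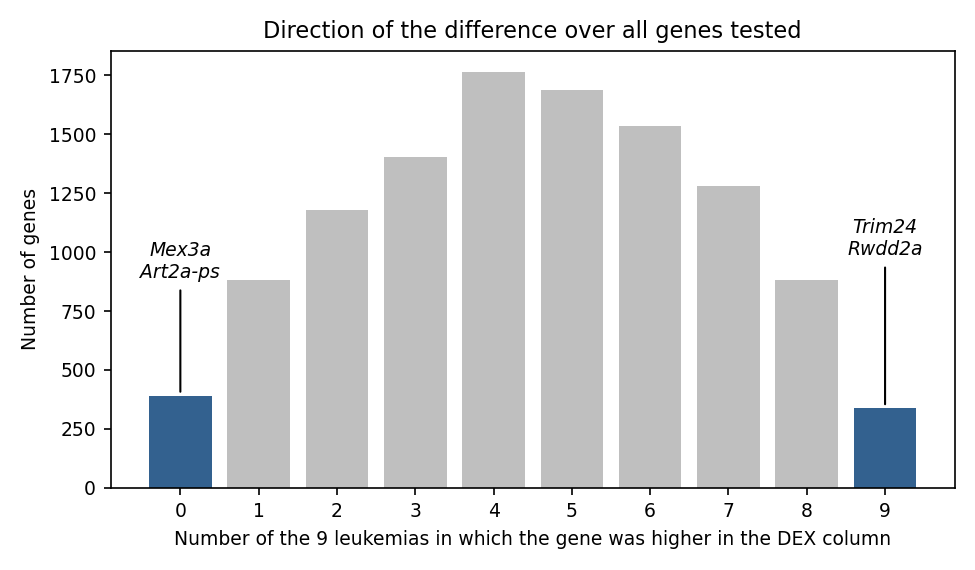
Number of the 11339 genes tested (vertical axis) by the number of the 9 leukemias in which the DEX column was the higher one (horizontal axis). The bar at 0 holds 390 genes, of which 383 were lower in all 9 leukemias and the rest were tied in some, and the bar at 9 holds 337; these bars contain the 4 named genes.

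*Mex3a* (ENSMUSG00000074480, mm10 chr3:88532395-88541396, + strand) was at 13.06 ± 3.63 FPKM in the VEH libraries and at 6.32 ± 1.89 FPKM in the DEX libraries (SD, n = 9). The VEH values ran from 4.91 FPKM in 5C over a median of 13.5 to 17.2 FPKM in 2M, and the DEX values from 2.94 FPKM in 5C over a median of 6.30 to 9.85 FPKM in JW14. The groups overlapped through 5C alone, since the lowest VEH value of the other leukemias, 10.3 FPKM in 8633, lay above the highest DEX value. The fitted log2 fold change was -0.99 ± 0.08 (SE), 1.99-fold lower. Within single leukemias the difference of log2 CPM was smallest in 8633 (-0.65), JW14 (-0.68) and 5C (-0.69) and largest in 73M (-1.42).

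**Figure D2:**
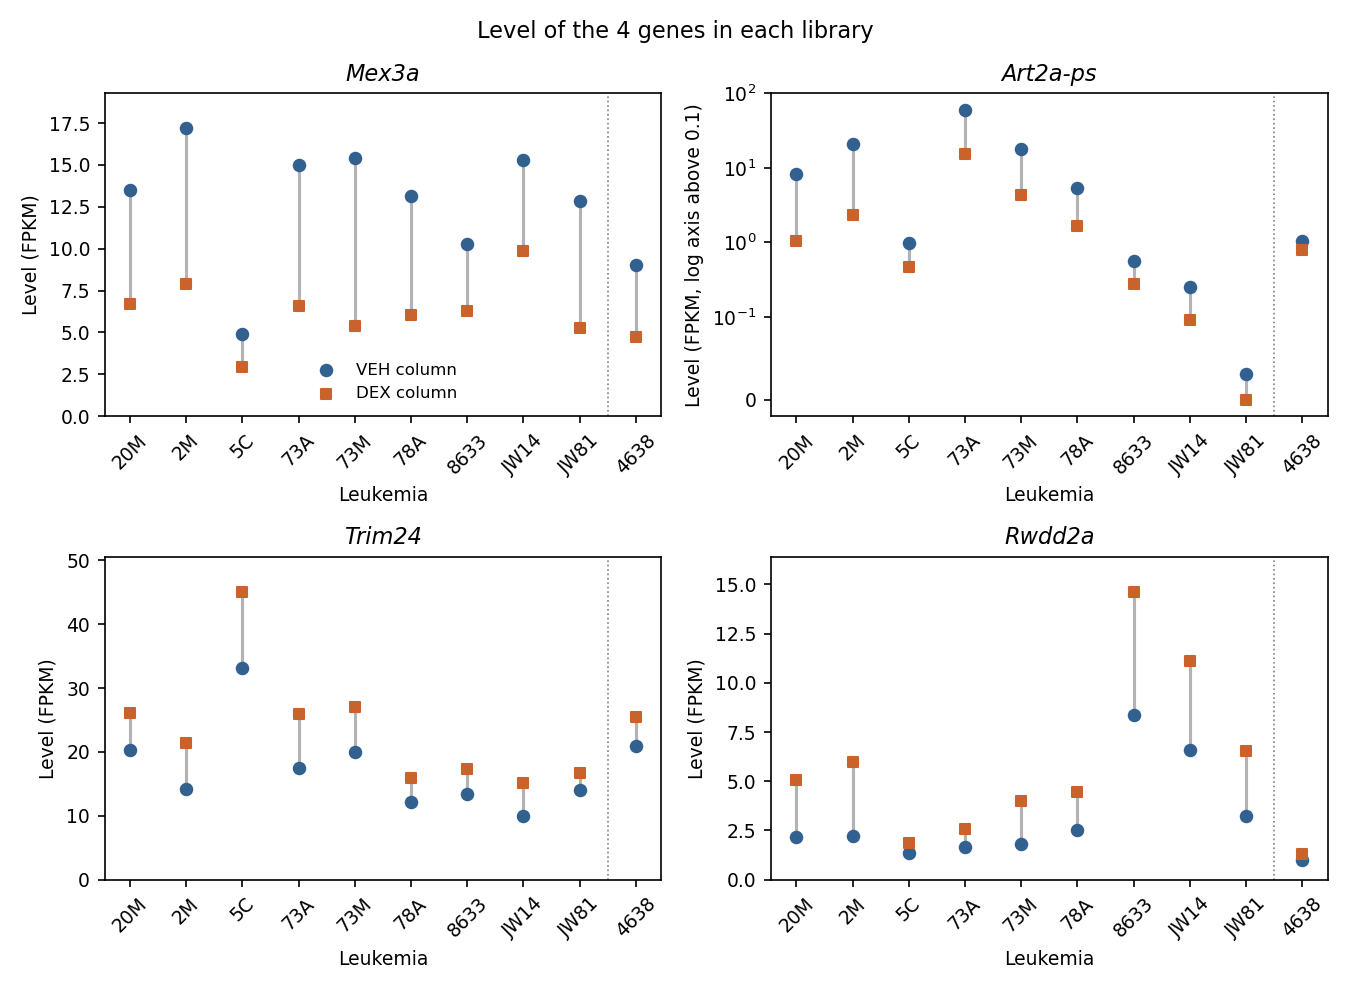
Level of each gene in FPKM (vertical axes, *Art2a-ps* on a log axis above 0.1) in the VEH and DEX library of each leukemia (horizontal axis), with a line joining the pair and leukemia 4638 to the right of the dotted line. *Mex3a* and *Art2a-ps* are lower and *Trim24* and *Rwdd2a* higher in the DEX library of every pair, and 5C has the lowest *Mex3a* and the highest *Trim24* level of the 9.

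The level of *Mex3a* over both libraries of a leukemia ranged from 3.93 FPKM in 5C to 12.6 FPKM in JW14, 3.2-fold. Leukemia 5C stood below all others without overlap, and of the 8 pairs of neighbours in the order of levels the remaining 7 overlapped in their libraries. The VEH library of 5C was one of the 5 with ribosomal RNA. The mean difference of log2 CPM was -0.982 in the 5 leukemias with such a library and -0.997 in the 4 without.

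The relatives of *Mex3a*, *Mex3b*, *Mex3c* and *Mex3d*, encode RNA-binding proteins of the same build, and MEX3C is known as a ubiquitin ligase that acts on mRNA decay. All 3 fell in the DEX columns, where 6.79% of all genes tested passed the edgeR test in this direction (770 genes, next to 705 or 6.22% higher and 13.0% in all; Benjamini-Hochberg adjusted over 11339 genes). *Mex3b* fell from 6.11 ± 1.99 to 3.28 ± 1.48 FPKM (SD, n = 9), with a log2 fold change of -0.90 ± 0.11 (SE, edgeR adjusted p = 0.00137), and was lower in 9 of 9 leukemias. The smallest difference of *Mex3b* was that of 5C (-0.28), from 7.49 to 5.95 FPKM. *Mex3d*, at 1.78 ± 0.378 FPKM in the VEH libraries, fell by 0.59 (adjusted p = 0.0247, edgeR), and *Mex3c*, the most abundant at 22.04 ± 2.79 FPKM, by 0.34 (adjusted p = 0.0219, edgeR), each lower in 8 of 9. The call of *Mex3c* was lost without 20M (adjusted p = 0.0542) and that of *Mex3d* without 20M, 2M, 73M or JW81 (adjusted p from 0.0529 to 0.0623), whereas *Mex3b* kept its call whichever leukemia was left out. With a term for the libraries with ribosomal RNA, neither *Mex3c* (adjusted p = 0.0857) nor *Mex3d* (0.0769) passed, and in the 4 leukemias without such libraries *Mex3c* was at -0.19 (adjusted p = 0.281) and *Mex3d* at -0.70 (0.0614), while *Mex3b* passed in both fits. Whether the 4 genes of the family differed from each other in their change was not tested.

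*Art2a-ps* (ENSMUSG00000092517, chr7:101552453-101560865, - strand, annotated as a polymorphic pseudogene) showed the largest difference and the widest range of levels. In the VEH libraries it was highest in 73A (59.2 FPKM), followed by 2M (20.9), 73M (17.8), 20M (8.30) and 78A (5.40), and it was below 1 FPKM in 5C (0.985), 8633 (0.563), JW14 (0.253) and JW81 (0.031). In the DEX libraries the values in the same order were 15.6, 2.34, 4.39, 1.03, 1.64, 0.474, 0.279, 0.0967 and 0 FPKM. The groups overlapped widely across leukemias, and the difference was visible within the pairs. The fitted log2 fold change was -2.10 ± 0.23 (SE), 4.29-fold lower.

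The difference of *Art2a-ps* was measured most precisely in the 5 leukemias in which it was abundant. The ratio was 8.81-fold lower in 2M (95% counting interval 7.08 to 11.06), 7.78-fold in 20M (5.30 to 11.9), and between 3.24-fold and 3.77-fold in 73A, 73M and 78A. In 5C (14 against 17 counts at different depths), 8633 (21 against 8) and JW14 (12 against 1) the interval included 1, and JW81 had 1 count against 0, which is under the limit of 3 counts and gives no fold. In these 4 leukemias the difference was no larger than counting error.

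*Art2b* (T cell ecto-ADP-ribosyltransferase 2), which lies on the same strand of chromosome 7, fell as well. It went from 2.39 ± 2.39 to 0.519 ± 0.445 FPKM (SD, n = 9). The log2 fold change was -1.97 ± 0.24 (SE, edgeR adjusted p = 0.00118), and *Art2b* was lower in 9 of 9 leukemias. Its DEX mean was under 1 FPKM, so it passed the filter through its VEH libraries. The call was kept with no filter. The 9 leukemias include 5C (6 VEH and 5 DEX counts at different depths) and JW81 (3 and 0 counts). There the direction of *Art2b* rests on few counts. As with *Art2a-ps*, the largest *Art2b* levels in the VEH libraries were those of 2M (6.49 FPKM), 73A (5.13), 73M (4.39) and 20M (2.64), and JW81 was near 0 (0.0413). In contrast to *Art2a-ps*, which was far higher than *Art2b* in 73A, *Art2b* was the higher one in 8633 (1.16 FPKM) and JW14 (0.468).

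The genes are close copies. Their coding sequences, of 861 and 858 bases, differed at 110 of 858 aligned positions (87.2% identity). To show where reads can tell the genes apart, a stretch of 90 coding bases with 27 differences is given from the mm10 genome, 5′ to 3′ on the - strand, at chr7:101554771-101554860 for *Art2a-ps* and chr7:101580132-101580221 for *Art2b*, with the differing bases in capitals.
Art2a-ps: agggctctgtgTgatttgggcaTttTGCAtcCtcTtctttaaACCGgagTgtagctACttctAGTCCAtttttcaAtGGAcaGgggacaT
Art2b: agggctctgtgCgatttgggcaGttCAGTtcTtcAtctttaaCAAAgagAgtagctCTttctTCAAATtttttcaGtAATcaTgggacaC

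Of 1158 windows of 100 bases along the *Art2a-ps* transcript, 28 (2.42%) also occurred in *Art2b*. In 7 of 20 libraries the count of *Art2a-ps* was not whole, and in all 7 its sum with *Art2b* was whole within 0.01 counts, as when reads are divided between both genes. With the counts of both genes added up, the log2 fold change was -1.99. Of the remaining enzymes of the family, *Art4*, the carrier of the Dombrock blood group, fell by 0.59 (adjusted p = 0.0230, edgeR) and was lower in 9 of 9, a call lost without 2M (adjusted p = 0.0533), with the ribosomal RNA term (0.0841) and in the 4 leukemias without such libraries (0.155). *Art1*, *Art3* and *Art5* were under 1 FPKM on average. *P2rx7*, the receptor that ART2 modifies, did not pass the test (-0.27 ± 0.14 SE, edgeR adjusted p = 0.216), nor did the NAD-consuming enzyme gene *Bst1* (0.17 ± 0.10 SE, adjusted p = 0.251), while *Cd38*, *Nt5e* and *Entpd1* were under the filter.

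*Trim24* (ENSMUSG00000029833, chr6:37870811-37966296, + strand) had the smallest and most even difference of the 4 genes. It was at 17.2 ± 6.89 FPKM in the VEH libraries, from 10.03 in JW14 over a median of 14.3 to 33.1 FPKM in 5C, and at 23.4 ± 9.42 FPKM in the DEX libraries, from 15.2 over 21.4 to 45.1 FPKM in the same leukemias (SD, n = 9). The groups overlapped, as the spread among leukemias exceeded the difference within them. The fitted log2 fold change was 0.49 ± 0.05 (SE), 1.41-fold higher. The 9 differences of log2 CPM ran from 0.37 in JW81 to 0.63 in 73A with an SD of 0.095, against an SD of 0.265 for *Mex3a*, 0.316 for *Rwdd2a* and 0.870 for *Art2a-ps*. It had 1063 to 34179 counts per library. The level in 5C (39.1 FPKM) stood above the next, 73M (23.5 FPKM), without overlap, and the other neighbours in the order overlapped.

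**Figure D3:**
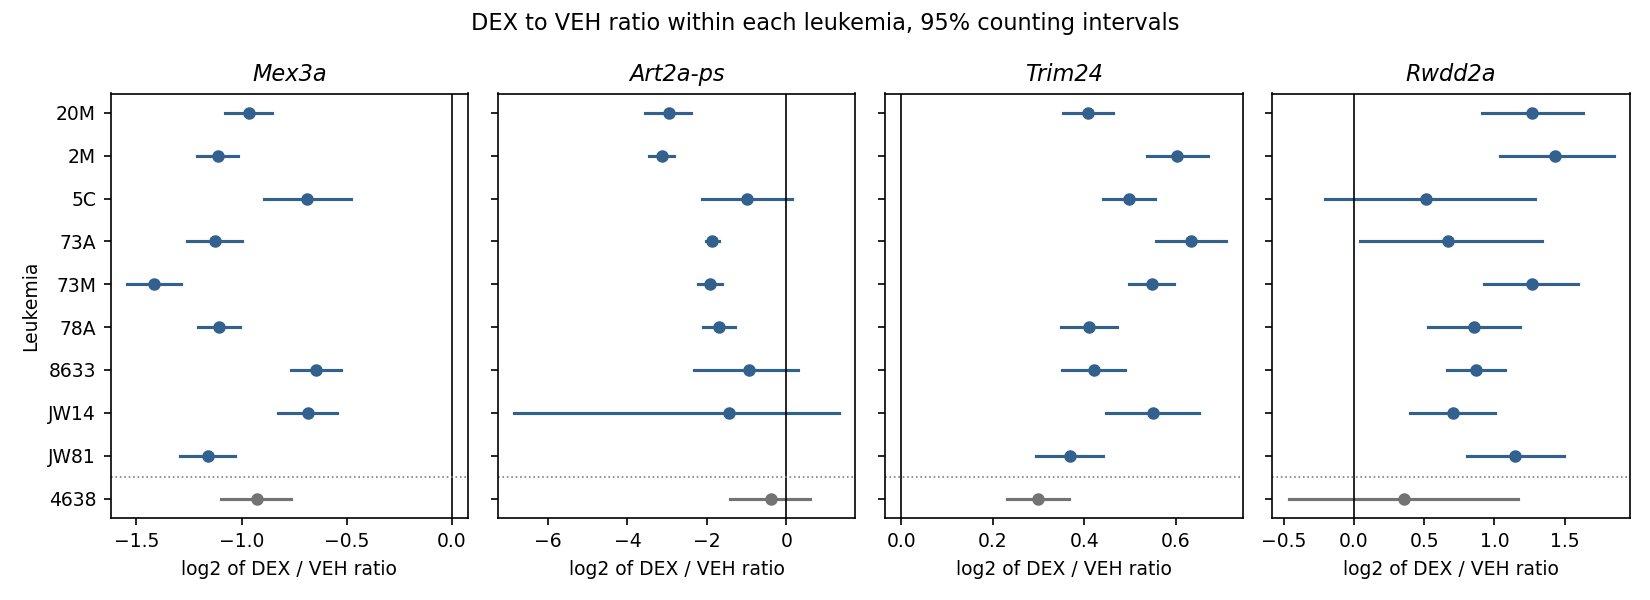
Ratio of the DEX to the VEH library (horizontal axes, log2 of counts scaled by library size) in each leukemia (vertical axis), with 95% counting intervals and leukemia 4638 in grey below the dotted line. The horizontal scales differ between panels, and *Art2a-ps* has no value in JW81.

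Neither of the 2 tested relatives of *Trim24* passed with edgeR (1 at an unadjusted p under 0.05). Over all genes tested 13.0% passed, so this count is not a result about these relatives. *Trim28*, the corepressor of KRAB zinc finger proteins, was at 100.8 ± 12.8 and 96.01 ± 21.5 FPKM (log2 fold change -0.04 ± 0.06 SE, edgeR adjusted p = 0.663). *Trim33* (TIF1 gamma), a partner of SMAD proteins, was lower in 9 of 9 leukemias, opposite in sign to *Trim24*, by a small amount that missed the threshold (-0.16 ± 0.05 SE, edgeR adjusted p = 0.0598), and it passed without 5C (adjusted p = 0.0455), with DESeq2 (0.0190), with a filter of 5 FPKM (0.0471) and with scaling by total counts (-0.21, adjusted p = 0.0291). *Trim66* was under the filter. Of the nuclear receptors, partners of TRIM24 among them, the glucocorticoid receptor gene *Nr3c1* rose from 35.1 ± 11.5 to 51.5 ± 18.5 FPKM (SD, n = 9; log2 fold change 0.58 ± 0.10 SE, edgeR adjusted p = 0.00561), in 9 of 9 leukemias. The retinoic acid receptor gene *Rara* fell by 0.35 (edgeR adjusted p = 0.0478), a call lost without any one of 20M, 2M, 73A, 73M, 78A, 8633 or JW81 (adjusted p from 0.0704 to 0.111) and with the ribosomal RNA term (0.0983). *Rarb* and *Rxrb* did not pass, and the other 4 receptors were under the filter. The p53 gene *Trp53*, whose protein TRIM24 ubiquitinates, and *Mdm2* and *Mdm4* did not pass either (0 of 3 with edgeR or DESeq2, where 13.0% of all genes passed with edgeR, and 1 at an unadjusted p under 0.05; *Trp53* -0.21 ± 0.08 SE, edgeR adjusted p = 0.0946).

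*Rwdd2a* (ENSMUSG00000032417, chr9:86571991-86574899, + strand) was the least abundant of the 3 protein-coding genes. It was at 3.32 ± 2.46 FPKM in the VEH libraries, from 1.35 in 5C over a median of 2.23 to 8.37 FPKM in 8633, and at 6.24 ± 4.14 FPKM in the DEX libraries, from 1.85 over 5.04 to 14.6 FPKM in the same leukemias (SD, n = 9). The groups overlapped across leukemias. The fitted log2 fold change was 0.99 ± 0.11 (SE), 1.99-fold higher, with differences of log2 CPM from 0.50 in 5C to 1.42 in 2M. Its counts were low in some libraries, and in 5C 21 VEH and 73 DEX counts gave a ratio of 1.43 with a counting interval of 0.869 to 2.44. Leukemias 8633 (11.5 FPKM) and JW14 (8.84 FPKM) overlapped each other and stood above JW81 (4.88 FPKM) and the rest.

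*Rwdd2a* begins 148 bases from the start of *Pgm3*, which is transcribed the other way from chr9:86554377-86571842 and encodes phosphoglucomutase 3 of UDP-N-acetylglucosamine synthesis. The stretch between them is shown because both genes were higher in the DEX columns. It was taken from the RefSeq promoter table (GRCm38.p6, chr9:86571843-86571990, + strand, 5′ to 3′), with CCAAT boxes (CCAAT or ATTGG) and GC boxes (CCGCCC or GGGCGG) in capitals; the motifs do not overlap.
Rwdd2a-Pgm3: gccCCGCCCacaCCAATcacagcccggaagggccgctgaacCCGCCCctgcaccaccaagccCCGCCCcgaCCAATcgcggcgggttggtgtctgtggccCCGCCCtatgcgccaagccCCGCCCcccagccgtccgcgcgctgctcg

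The stretch held 2 CCAAT boxes and 5 GC boxes. Of 32851 windows of the same length before RefSeq gene starts, 24.2% held a CCAAT box and 5.93% at least 2, and 28.5% held a GC box and 0.849% at least 5. The glucocorticoid receptor motif AGAACA (or TGTTCT) was in 9.50% of the windows and not among these letters. *Pgm3* rose from 6.93 ± 2.44 to 8.22 ± 3.02 FPKM (SD, n = 9; log2 fold change 0.29 ± 0.06 SE, edgeR adjusted p = 0.0103), in 8 of 9 leukemias, with JW81 at -0.04; in the 4 leukemias without ribosomal RNA libraries it missed the threshold (0.32 ± 0.08 SE, adjusted p = 0.0672). In JW81 *Rwdd2a* was higher by 1.14 on the log2 scale. Of the genes nearest to the 4 genes on each side or overlapping them, *Pgm3* was the only one that could be tested. *Rab25*, *Gm7027*, *Svopl*, *Me1* and *Mir1905* were under the filter and *Gm37584*, *Gm35363* and *Gm7492* were not analysed here. *Mir1905* lies within *Mex3a* and was listed at 0.

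Of 8 other RWD domain genes tested, 1 passed, a share near the 13.0% of all genes. *Eif2ak4* (GCN2, the kinase that senses missing amino acids) rose by 0.25 ± 0.06 (SE, edgeR adjusted p = 0.0239), in 9 of 9 leukemias, with the call lost without 20M, 73A or 8633 (adjusted p from 0.0539 to 0.0673), with no filter (0.118), with the ribosomal RNA term (0.102) and in the 4 leukemias without such libraries (0.251). Its inhibitor *Impact* had the same size of difference (0.25 ± 0.08 SE) and missed the threshold (edgeR adjusted p = 0.0659). The nearest relative, *Rwdd2b*, was at -0.08 ± 0.08 (SE, edgeR adjusted p = 0.499), and *Rwdd1*, *Rwdd3*, *Rwdd4a*, *Rnf14* and *Rnf25* did not pass.

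**Figure D4:**
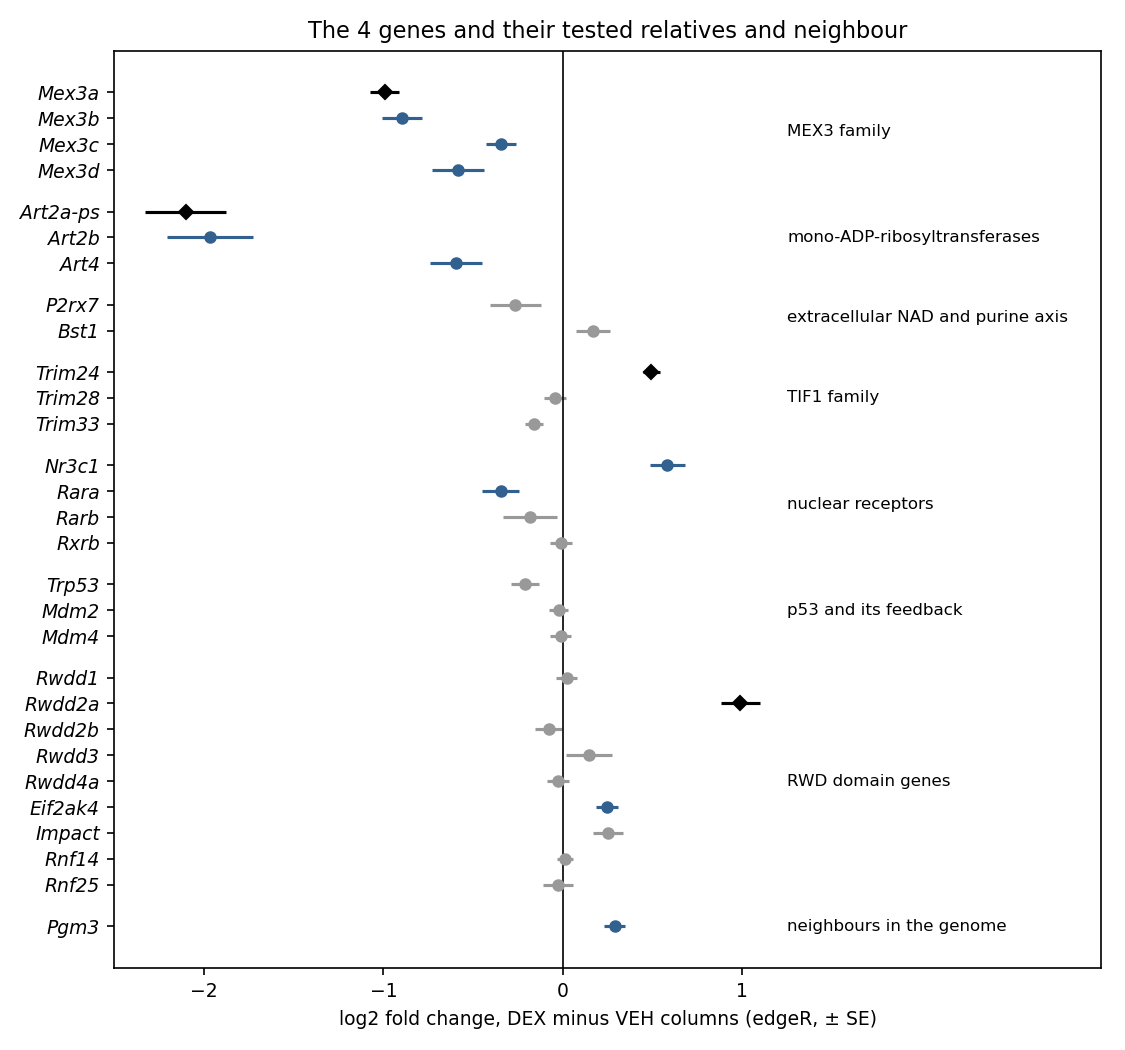
edgeR log2 fold change between the DEX and VEH columns (horizontal axis, bars are SE, n = 9 leukemias) of the 4 genes (black diamonds, no test) and of their tested relatives and neighbour (vertical axis, grouped by list). Blue points passed at an adjusted p of 0.05 and grey points did not; the 3 *Mex3a* relatives and *Art2b* lie below 0, and *Trim28* and *Trim33* close to 0.

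A list of 6 genes known to be induced by glucocorticoids was read beside these. *Tsc22d3* (1.11 ± 0.20 SE, edgeR adjusted p = 0.00700), *Fkbp5* (0.94 ± 0.11 SE, adjusted p = 0.00113), *Klf9*, *Ddit4* and *Zbtb16* rose in 9 of 9 leukemias, *Zbtb16* with an adjusted p of 0.0577 without 73A and 0.114 in the 4 leukemias without ribosomal RNA libraries. *Klf9* averaged 0.741 FPKM in the VEH and 1.91 FPKM in the DEX libraries, so it passed the filter through its DEX libraries. With no filter its log2 fold change was 1.42. *Per1* did not pass (0.81 ± 0.30 SE, edgeR adjusted p = 0.0895). On the log2 scale, *Rwdd2a* and *Fkbp5* therefore differed by similar amounts, and *Trim24* by less than each of the 5 genes that passed. Over all 31 tested relatives and neighbours, 8 rose, 6 fell and 17 did not pass, where 6.22% of all genes tested rose and 6.79% fell, and 5 of the 8 that rose came from the list of known glucocorticoid-induced genes. Their median log2 fold change was -0.01 beside 0.00 for all genes.

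Leukemia 4638 was the one pair that had no part in the choice. All 4 genes kept their direction there, at -0.92 (*Mex3a*), -0.36 (*Art2a-ps*), 0.30 (*Trim24*) and 0.34 (*Rwdd2a*) on the log2 CPM scale. Of the 383 genes lower in 9 of 9 leukemias 250 (65.3%) were lower in 4638, and of the 337 higher genes 72.1% were higher, whereas 50.8% of all genes tested were lower and 48.2% higher in its DEX library. With 1 pair there is no replicate check, and the intervals cover counting error only.

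For *Mex3a*, 4638 gave 9.01 FPKM (1045 counts) in the VEH and 4.70 FPKM (414 counts) in the DEX library, 1.90-fold lower (1.70 to 2.14), within the range of the other leukemias. *Trim24* was at 20.9 and 25.5 FPKM, a ratio of 1.23 (1.17 to 1.29). This ratio was lower than any of the 9 others, whose smallest was 1.29 in JW81 (1.23 to 1.36), with overlapping intervals. *Art2a-ps* (26 and 15 counts, ratio 0.765, interval 0.377 to 1.499) and *Rwdd2a* (28 and 27 counts, ratio 1.28, interval 0.725 to 2.25) had intervals that included 1. Taken as single values, their differences of log2 CPM were also smaller than in any of the 9 leukemias. The smallest there were -0.75 for *Art2a-ps* (JW81, 1 count against 0, which gives no fold) and 0.50 for *Rwdd2a* (5C). The intervals in 4638 also held ratios of the 9 leukemias, such as 0.517 in 8633 for *Art2a-ps* and 1.43 in 5C for *Rwdd2a*. A smaller difference than in the 9 leukemias was therefore not shown for *Art2a-ps* or *Rwdd2a*. Since their intervals included 1, a difference of these genes was not detectable in 4638 at this depth, although the sign was the same.

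Among the relatives that passed in the 9 leukemias, *Mex3b* (-1.02), *Art4* (-0.30) and *Rara* (-0.27) were lower in 4638, and *Art2b* had 11 counts in its VEH and 2 in its DEX library, too few for a fold. *Nr3c1* (0.06) and *Eif2ak4* (0.05) were close to 0, and *Mex3c* (0.16), *Mex3d* (0.04) and *Pgm3* (-0.03) had the opposite sign. *Tsc22d3* (2.01) and *Fkbp5* (1.72) were higher. The marker sums of 4638 stood apart from those of the other leukemias, with T lineage genes at 207.6 and 176 FPKM, neutrophil genes at 4601 and 3053 FPKM and macrophage genes at 82.7 and 85.7 FPKM in the VEH and DEX libraries.

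In their levels across the 9 leukemias no pair of the 4 genes was closely alike, with Pearson's r of mean log2(FPKM + 1) at most 0.42 (*Mex3a* and *Rwdd2a*). The values of r largest in size were negative. They were -0.755 for *Trim24* and *Rwdd2a*, -0.73 for *Trim24* and *Mex3a* and -0.568 for *Art2a-ps* and *Rwdd2a*. The genes with the most similar levels were *Kat8* (r = 0.92), *Iqcd* (0.92) and *Il9r* (0.91) for *Mex3a* and *Ttll5* (0.98), *Rab44* (0.97) and *Prg2* (0.97) for *Art2a-ps*. For *Trim24* they were *Hypk*, *Entpd7* and *Scaf8* (each 0.97), and for *Rwdd2a* *Vps37b* (0.98), *Lgals9* (0.96) and *Nucb1* (0.95). These are descriptions over 9 points that share libraries, chosen as the highest of all genes tested.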

How the data were processed

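Expected counts per gene, estimated by the authors from paired reads with Bowtie2 and RSEM on mm10, were taken as deposited; versions and annotation are not given in the sources used here. The table is named for FPKM, but 81.4% to 88.9% of the values in each column were whole within 0.01 and column totals differed widely, so the values were taken to be expected counts; each FPKM, fit and interval rests on that reading. All 20 columns were used, 3 of them matched to their sample by leukemia alone. Counts were rounded, scaled by TMM and tested with edgeR 4.0.16 (quasi-likelihood, leukemia as block, 9 leukemias, R 4.3.3) over 11339 genes averaging 1 FPKM or more, with Benjamini-Hochberg adjustment and a threshold of 0.05. FPKM used exon lengths of GENCODE M21, which matched 37693 of 39017 genes. Pairing within a leukemia comes from its name in the labels. Differences of log2 CPM used a prior count of 2, and levels on the log scale a pseudocount of 1. Ratios in a leukemia have exact conditional binomial 95% intervals. The fit was tested on simulated counts. Named are the 4 genes, all genes of the lists of relatives, their genomic neighbours, the 3 genes most alike in level and the leading gene per direction in 8 of 9 leukemias. The genes and lists were chosen with earlier results of these data known. Whether libraries of a leukemia are separate animals is not stated. With leukemia as block, p-values measure the DEX minus VEH difference against its variation among the leukemias. With 1 library of each kind per leukemia, variation between libraries of the same kind within a leukemia was not estimated. Without strand, overlapping genes cannot be told apart. DESeq2 1.42.0, other scalings, filters and left-out leukemias were alternatives.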

Additional observations from a re-analysis of the deposited data

Results flagged for a closer look

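The level of *Mex3a* in leukemia 5C, a mean log2(FPKM + 1) of 2.27, stood apart from the other 8 leukemias, with a gap that took 0.624 of the whole range against a critical value of 0.493. It was found among 16 values examined (the highest and lowest leukemia in level and in difference for each of the 4 genes), and chance marks about 1 in 20 groups. The VEH library of 5C was one of the 5 with ribosomal RNA, whose part in this level was not tested.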

How the results depend on the processing

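The fitted log2 fold change of each of the 4 genes kept its sign under every alternative run, from -1.04 to -0.94 for *Mex3a*, -2.20 to -1.87 for *Art2a-ps*, 0.44 to 0.52 for *Trim24* and 0.91 to 1.03 for *Rwdd2a*, which a filter of 5 FPKM removed. The count of genes past the threshold, 1475, fell to 8 with no replicate block, that is without pairing the libraries of a leukemia, ranged from 676 (without 20M) to 2041 (without 5C) with 1 leukemia left out, with 739 without 2M, 766 without 73A, 847 without 73M and 966 without JW81, and was 465 with a term for the ribosomal RNA libraries, 475 in the 4 leukemias without them and, chosen after seeing the data, 15 in the 5 others. Scaling by total counts shifted the median log2 fold change to -0.05 and gave 490 higher and 1176 lower genes in place of 705 and 770; of the genes with one direction in 9 of 9 leukemias, 561 of 762 were then lower, in place of 383 of 720, and the 4 genes kept theirs. Of the 31 relatives 14 passed, against 0 with no replicate block (8 at an unadjusted p under 0.05) and 9 with the ribosomal RNA term. In the 5 leukemias 0 passed (16 unadjusted, all with edgeR). The 5 FPKM filter left fewer relatives to test, as it removed *Mex3b*, *Mex3d*, *Art2b*, *Art4*, *Eif2ak4*, *Rara*, *Klf9* and *Zbtb16*. Of those it kept 7 passed, which were *Mex3c*, *Nr3c1*, *Tsc22d3*, *Fkbp5*, *Ddit4*, *Pgm3* and, in addition, *Trim33*. The mean level of *Mex3a*, 3.29 on the log2(FPKM + 1) scale, was 3.75 in the VEH and 2.83 in the DEX columns alone and 3.85 in TPM, and that of *Trim24*, 4.32, was 4.91 in TPM. The causes were not tested. Low counts limited the precision of *Art2a-ps* in 5C, 8633, JW14 and JW81 and of *Rwdd2a* in 5C.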
